A study of Mus musculus with 9 samples.

Results

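The genes described here are the chemokines and chemokine receptors of the mouse submandibular salivary gland after irradiation. They were chosen by name alone: every protein-coding gene whose symbol starts with Ccl, Cxcl, Cx3cl, Xcl, Ccr, Cxcr or Ackr followed by a number. The analysis covers 64 such gene identifiers, with 59 distinct symbols, of 54532 in the count table. Counts of RNA sequencing reads per gene were available for 9 samples of glands of wild-type mice, all of which had received 10 Gy of radiation, and the samples fall into 3 groups of 3 taken 30, 60 or 90 days later. Total RNA came from 4 tissue sections of each gland, each 50 µm thick. Glands without radiation were not analysed here, so every comparison is between irradiated glands, and time since irradiation and the age of the mice cannot be told apart. The labels do not give age, sex or hour of harvest, and do not say that the 3 samples of a day are 3 animals, so p-values measure the spread between these samples.

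Chemokines are small secreted proteins that steer the migration of leukocytes along concentration gradients. They are classed by the spacing of the first conserved cysteines of the mature protein: adjacent in the CC class, separated by 1 residue in the CXC class, by 3 in the CX3C class, and reduced to a single cysteine in the XC class. Most act through receptors with a membrane-spanning helical bundle that couple to inhibitory G proteins, and atypical receptors bind chemokines without this coupling and remove or store them. In salivary glands and other mucosal tissue, Ccl28 is known as an epithelial chemokine that draws antibody-secreting cells through Ccr10 and also has antimicrobial activity. Inflamed glands are known for lymphocyte-attracting ligands such as Cxcl9, Cxcl10 and Cxcl13.

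Library totals ran from 16541396 to 17179500 counts at 30 days, from 21722141 to 24880803 at 60 days and from 20410818 to 26065856 at 90 days, so that 3 counts, the limit of detection used here, correspond to 0.115 to 0.181 CPM, the usual depth-adjusted unit in which the counts of a gene are taken relative to the library total. The acinar gene Mucl2 alone took 31.4% to 42.8% of the counts. The tissue label was taken as given. All of 7 acinar and 7 duct markers passed the filter on low counts, which alone does not show which salivary gland was sampled. A pair of libraries stood apart, and not for the members alone. Of the 33 members that passed the filter, 17 had their highest value in 90-day sample 2, and 18 had their lowest in 30-day sample 1. The same shares over all genes were not counted. The Mucl2 share was highest in 30-day sample 1 and lowest in 90-day sample 2. Calls over all genes between 90 and 30 days fell from 544 to 184 without 30-day sample 1 and to 190 without 90-day sample 2. They also fell to 246 without 90-day sample 3 and to 333 without 30-day sample 2, so a fall was not particular to this pair. In bulk tissue, fewer cells of a type and less RNA per cell cannot be told apart.

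The coding sequence around the class-defining cysteines is given for the 3 members with the highest level per kilobase of exon, for the single CX3C and XC ligands, and for 3 ligands whose receptors or values are taken up below. Each stretch is from the transcripts of GENCODE mouse release 21, coding strand, with 18 bases on either side and the cysteine codons in capitals.
Cxcl17: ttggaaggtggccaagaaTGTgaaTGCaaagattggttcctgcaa
Ccl28: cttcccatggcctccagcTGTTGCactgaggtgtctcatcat
Cxcl14: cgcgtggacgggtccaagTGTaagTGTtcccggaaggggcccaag
Cx3cl1: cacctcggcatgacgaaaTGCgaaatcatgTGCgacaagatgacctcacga
Xcl1: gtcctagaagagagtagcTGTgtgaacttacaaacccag
Cxcl16: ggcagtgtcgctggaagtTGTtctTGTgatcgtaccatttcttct
Ccl8: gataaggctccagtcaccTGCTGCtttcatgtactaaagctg
Cxcl9: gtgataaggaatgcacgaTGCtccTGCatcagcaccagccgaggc
The codons were located as the first match, past the start of the protein, to the spacing that the gene name implies. The spacing is thus set by the name and illustrates the classes without testing them. The capitals stand side by side in Ccl28 and Ccl8. They are parted by 1 codon in Cxcl17, Cxcl14, Cxcl16 and Cxcl9 and by 3 codons in Cx3cl1. In Xcl1 only 1 codon was marked.

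Expression was dominated by a few epithelial and mucosal ligands. Levels between genes were compared as scaled CPM (CPM after trimmed-mean scaling of the libraries) per kilobase of exon, averaged over the 9 libraries. On this scale Cxcl17, a mucosal chemokine that attracts myeloid cells, stood first at 85.4, followed by Ccl28 at 38.6 and Cxcl14, an epithelial chemokine, at 34.1. These 3 held 73.1% of the summed level of all members, and the first 10 held 89.5%. Next came Cx3cl1, the membrane-bound ligand fractalkine, at 9.41, the eosinophil attractant Ccl11 at 7.59 and Cxcl16, a membrane-bound ligand of Cxcr6, at 5.76. Ccl8 at 3.88, Ccl6 at 3.46, Cxcl12 at 2.96 and Ccl12 at 2.34 were also among the first 10.

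**Figure D1:**
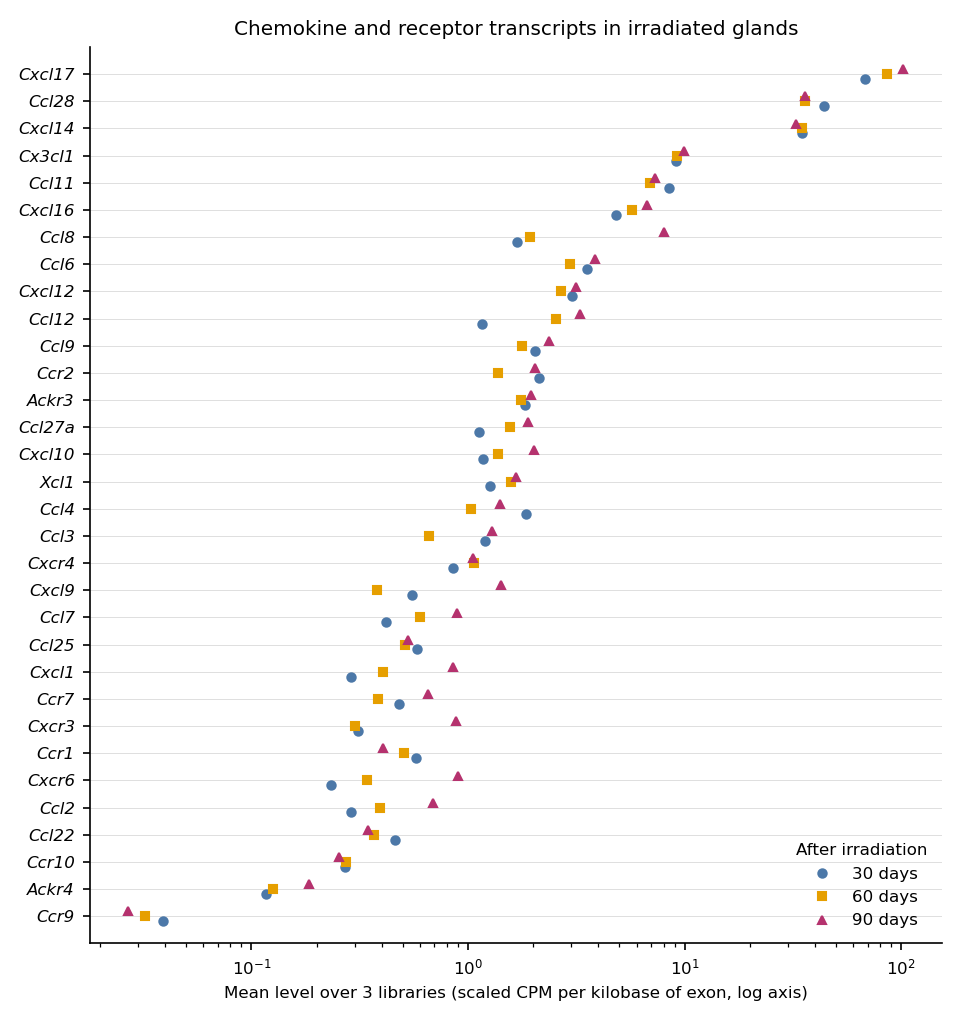
Level of the expressed chemokine and receptor genes, as scaled CPM per kilobase of exon on a log axis, for 32 of the 33 members that passed the filter, in order of their mean, with a symbol for the mean of 3 libraries at each day. Cxcl17, Ccl28 and Cxcl14 lie above all others and hold 73.1% of the summed level.

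By role, 8 of 21 identifiers of constitutive and lymphoid ligands (16 distinct symbols) and 11 of 16 inflammatory CC and XC ligands passed the filter on low counts. Both interferon-induced Cxcr3 ligands among the members, Cxcl9 and Cxcl10, also passed. Cxcl11, another ligand of Cxcr3, was not among the members. The filter was also passed by 1 of 4 neutrophil-attracting CXC ligands, 9 of 17 signalling receptors and 2 of 4 atypical receptors. Cxcl15, at 0 in all libraries, was counted with the constitutive ligands and not with the neutrophil-attracting ones. A further 21 members had counts below the filter and 10 had none in any library. The number of members with at least 1 count was 38, 44 and 42 in the 30-day libraries, 40, 41 and 44 in the 60-day libraries, and 48, 51 and 48 in the 90-day libraries. With every library thinned to 16541396 counts it was 38, 44 and 42, then 40, 37 and 44, then 47, 48 and 46. Each 90-day library held more detected members than any earlier one, also at this equal total. At that total the number of all genes with a count was 19239 to 20078 at 30 days, 19036 to 20273 at 60 days and 20095 to 20739 at 90 days, so that it too had its highest values at 90 days. An equal total is not an equal depth for genes other than Mucl2, whose share of the counts differed between libraries.

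Days were compared by the quasi-likelihood test of edgeR on all 15224 genes that passed the filter, with Benjamini-Hochberg adjustment over all of them and 0.05 as the threshold for adjusted p. Between 90 and 30 days 2 of 33 members (6.06%) passed, Cxcl17 and Cxcr6, both higher at 90 days, against 3.57% of all genes tested (1.81% higher, 1.77% lower). At an unadjusted p under 0.05 there were 9 members (27.3%), all higher at 90 days, against 16.8% of all genes (8.38% higher), and the members below this limit that did not pass the adjusted threshold are given as values only. DESeq2 called 3 members, against 6.17% of all genes it tested, and limma-voom 1, against 2.92%. Without 90-day sample 2, 0 of 34 members passed (4 at unadjusted p), against 1.23% of all genes. Only Cxcl17 of 34 passed without 30-day sample 1, against 1.16%, and without 90-day sample 3, against 1.56%. Without 90-day sample 1 there were 4 of 33, against 3.86%, namely Cxcl17, Cxcr6, Ccl8 and Cxcl16. Calls over all genes thus also fell without each of the first 3 libraries.

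Between 60 and 30 days edgeR called no member, against 1.56% of all genes (1.14% higher, 0.427% lower), with 2 members (6.06%) at an unadjusted p under 0.05, 1 higher and 1 lower, against 12.4% of all genes (6.42% higher). DESeq2 and limma-voom also called 0, against 2.74% and 0.998% of all genes. Between 90 and 60 days edgeR again called 0 of 33 members, against 0.256% of all genes (0.092% higher, 0.164% lower), with 7 members (21.2%) at an unadjusted p under 0.05, all higher at 90 days, against 10.8% of all genes (5.79% higher). DESeq2 called 1, against 1.17% of all genes it tested, and limma-voom 0, against 0.263%. For any difference among the 3 days 2 members passed, Cxcl17 and Cxcr6 again, against 3.29% of all genes, with 8 (24.2%) at an unadjusted p under 0.05, against 16.7%.

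The median log2 difference between 90 and 30 days was 0.31 over the 33 members, 23 of them positive, and 0.01 over all genes tested, 52.1% of them positive. Between 90 and 60 days it was 0.38, with 27 of 33 positive, against 0.00 and 50.1% positive over all genes. Between 60 and 30 days it was -0.06, with 15 of 33 positive, against 0.00 and 49.6%. The later medians depended on 90-day sample 2, which had the highest value of the 3 90-day libraries for 21 of the 33 members. The same share over all genes was not counted. Without that library the medians of members were 0.06 against 30 days, with 20 of 34 members positive, and 0.18 against 60 days. Those of all genes were then 0.00 and -0.01. The 60-day group serves in both neighbouring comparisons and the 30-day group in 2, so these medians are not independent. With libraries scaled by their totals alone, the median of all genes between 90 and 30 days moved from 0.01 to 0.24 and that of the members to 0.54, and the genes called changed from 275 higher and 269 lower to 406 higher and 34 lower.

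**Figure D2:**
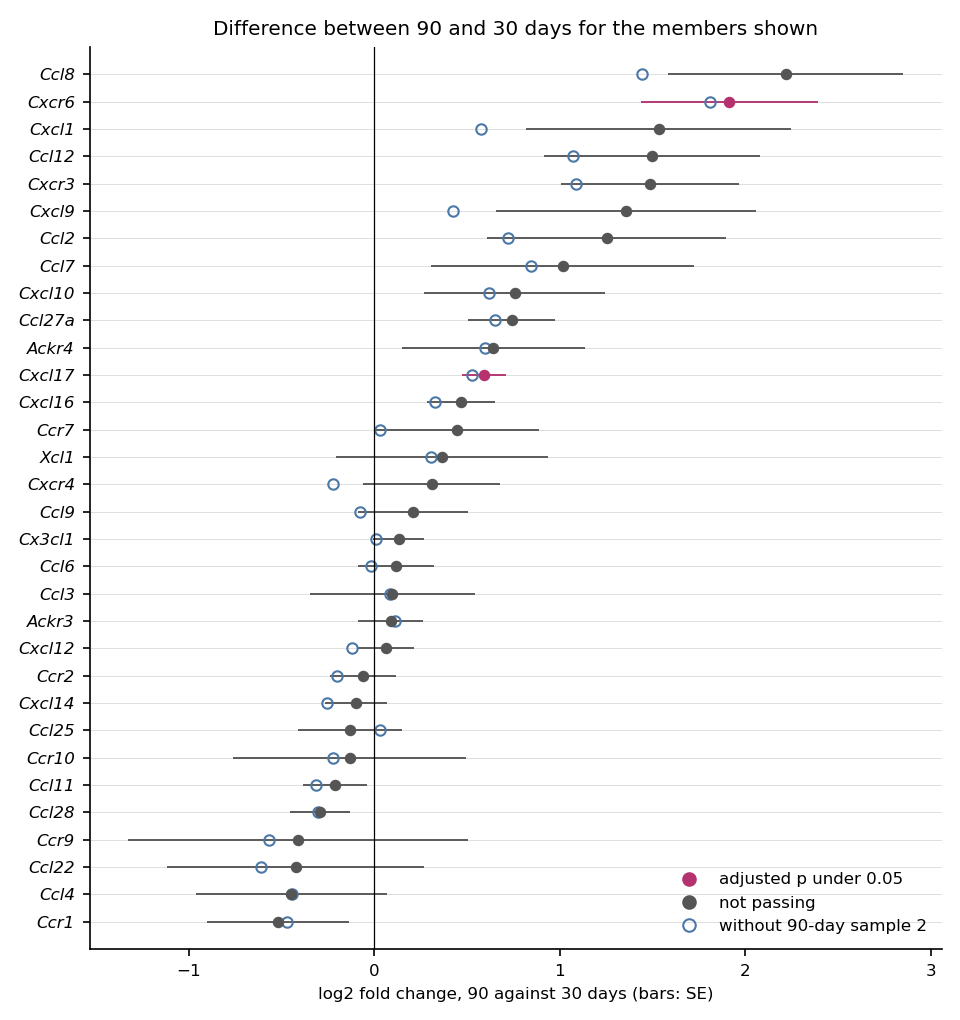
Log2 difference between 90 and 30 days for 32 of the 33 tested members, sorted by value, with bars for the standard error and open circles for the value without 90-day sample 2. The coloured points mark Cxcl17 and Cxcr6, which passed an adjusted p of 0.05, and 22 of the 32 filled points lie above 0.

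Cxcl17 rose with day. This ligand (ENSMUSG00000060188, GRCm38 chromosome 7, 25400053 to 25412886, minus strand) had 41.8, 58.3 and 54.6 scaled CPM in 30-day samples 1, 2 and 3, 68.6, 66.6 and 61.5 in the 60-day samples, and 73.6, 83.9 and 75.9 in the 90-day samples. The 3 days did not overlap: every 60-day value lay above every 30-day value, and every 90-day value above every 60-day value. The means were 51.6 ± 8.63, 65.5 ± 3.68 and 77.8 ± 5.38 (SD, n = 3 each). At 90 days the level was 1.51 times that at 30 days, a log2 difference of 0.59 ± 0.12 (SE, edgeR adjusted p = 0.00714), and any difference among days had an adjusted p of 0.0192. The single steps did not pass: the log2 difference was 0.34 between 60 and 30 days (adjusted p = 0.198) and 0.25 between 90 and 60 days (0.451).

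The difference in Cxcl17 between 90 and 30 days passed in 17 of 18 alternative analyses, with log2 values of 0.46 to 0.81 over the 18. Without 90-day sample 2 it was 0.53, at an edgeR adjusted p of 0.0517, and without both that library and 30-day sample 1, an alternative chosen after seeing the data, it was 0.41 (0.207). The test for any difference did not pass without 30-day sample 1 (0.0898), 90-day sample 2 (0.0823) or 90-day sample 3 (0.0593). The summed level of the 7 acinar markers was 445786 to 633220 scaled CPM at 30 days, 353322 to 516621 at 60 days and 304475 to 448191 at 90 days. Most of this sum is Mucl2, so it does not stand for the other acinar markers. Of the 7, 2 were higher and 5 lower at 90 than at 30 days. The summed level of the 7 duct markers was 18388 to 23147, then 27227 to 31802, then 23159 to 28636, and that of 7 basal and myoepithelial markers, 6 of which passed the filter, was 303.7 to 423.0, then 450.5 to 480.4, then 418.8 to 591.7. No marker of these 3 lists was at 0, and their part in the difference was not tested.

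Cxcr6, the receptor of Cxcl16 on activated and tissue-resident lymphocytes, also rose. Cxcr6 (ENSMUSG00000048521, GRCm38 chromosome 9, 123806475 to 123811760, plus strand) had 0.284, 0.654 and 0.414 scaled CPM at 30 days, 0.863, 0.543 and 0.584 at 60 days, and 1.11, 1.96 and 2.16 at 90 days, from 4, 11 and 7, then 20, 12 and 14, then 33, 57 and 43 counts. All 3 values at 90 days lay above the 6 earlier ones, and the 30-day and 60-day values overlapped. The means were 0.451 ± 0.188, 0.663 ± 0.174 and 1.74 ± 0.555 (SD, n = 3 each). The 90-day level was 3.77 times the 30-day level, a log2 difference of 1.91 ± 0.48 (SE, edgeR adjusted p = 0.0299). Any difference among days had an adjusted p of 0.0417, and the 90-day against 60-day difference of 1.38 did not pass (0.256).

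The Cxcr6 call depended on single libraries. It passed between 90 and 30 days in 12 of 17 alternative analyses. The edgeR adjusted p was 0.147 without 30-day sample 1, 0.0781 without 30-day sample 3, 0.141 without 90-day sample 2 and 0.13 without 90-day sample 3, with log2 differences of 1.69, 1.84, 1.81 and 1.74. With limma-voom the log2 difference was 1.82 at an adjusted p of 0.0793. For any difference among days the edgeR call was also lost without 30-day sample 1, 2 or 3 (0.112, 0.059 and 0.0838), 60-day sample 2 (0.0849), or 90-day sample 2 or 3 (0.206 and 0.2). The gene lies within Fyco1 on the opposite strand with no shared exon bases, and Fyco1 differed by -0.15 ± 0.12 (edgeR adjusted p = 0.556).

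The ligand Cxcl16 (GRCm38 chromosome 11, 70453983 to 70459984, minus strand) had 11.3, 13.6 and 19.0 scaled CPM at 30 days, 16.9, 16.8 and 18.1 at 60 days, and 15.3, 23.8 and 21.8 at 90 days. The days overlapped, since the highest 30-day value lay above the lowest 90-day value. The log2 difference between 90 and 30 days was 0.47 ± 0.18 (SE), at an edgeR adjusted p of 0.192. Without 30-day sample 3 it was 0.70 and without 90-day sample 1 it was 0.63, and both passed (0.0403 and 0.0483). Of its 3021 exon bases, 552 (18.3%) are shared with Zmynd15 on the opposite strand, which differed by 0.46 ± 0.21 (adjusted p = 0.272). Whether counting used strand is not given in the sources used here, so reads in the shared bases cannot be told apart.

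The receptor Cxcr3 and its interferon-induced ligands Cxcl9 and Cxcl10 are known for recruiting activated T cells. Cxcr3 (GRCm38 chromosome X, 101731535 to 101734269, minus strand) had 0.425, 0.654 and 0.533 scaled CPM at 30 days, 0.691, 0.407 and 0.459 at 60 days, and 0.978, 2.23 and 1.36 at 90 days. All 90-day values lay above the 6 earlier ones. The log2 difference between 90 and 30 days was 1.49 ± 0.48 (SE, edgeR adjusted p = 0.0954), between 90 and 60 days 1.54 (0.219), and for any difference the adjusted p was 0.0793. None of these passed with edgeR, whereas DESeq2 gave an adjusted p of 0.0338 for any difference. Without 90-day sample 2 the 90-day against 30-day value was 1.09 (0.481).

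Cxcl9 (GRCm38 chromosome 5, 92321347 to 92328079, minus strand) had 0.284, 2.73 and 1.95 scaled CPM at 30 days, 0.906, 1.36 and 1.17 at 60 days, and 2.60, 8.39 and 1.91 at 90 days. The 90-day values lay above the 60-day values and overlapped the 30-day values, and 90-day sample 2 was by far the highest. The log2 difference was 1.92 between 90 and 60 days (edgeR adjusted p = 0.380) and 1.36 ± 0.70 between 90 and 30 days (0.380), and without 90-day sample 2 these were 0.98 and 0.42. Cxcl10 had 0.780, 4.40 and 2.72 scaled CPM at 30 days, 4.19, 3.26 and 1.84 at 60 days, and 2.90, 5.29 and 5.42 at 90 days, with overlapping days (adjusted p for any difference 0.627). Of the Cxcl10 exon bases 133 (5.91%) are shared with Art3 on the opposite strand.

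T cell markers were higher in the same libraries. The summed level of 10 T cell markers, 6 of which passed the filter, was 2.13, 3.80 and 3.49 scaled CPM at 30 days, 2.20, 3.44 and 3.92 at 60 days, and 5.19, 15.2 and 7.58 at 90 days. No T cell marker passed between 90 and 30 days with edgeR or limma-voom, with 4 of 6 at an unadjusted p under 0.05, all higher, and 2 called by DESeq2. Cd3e, a subunit of the T cell receptor complex, had a log2 difference of 2.24 (edgeR adjusted p = 0.055) and passed for any difference (0.0432). The 8 B cell and germinal centre markers, none of which passed the filter, summed to 7.63 in 90-day sample 2 and to 0.407 to 0.947 in the other 8 libraries. This was not particular to lymphocytes. Marker sums of macrophages, dendritic cells, blood and lymphatic endothelium, and basal and myoepithelial cells were also highest in 90-day sample 2. Those of plasma cells, neutrophils, lymph node stroma, fibroblasts, acinar and duct cells were highest in other libraries. The plasma cell sum does not stand for each of its markers. Of 5 tested, 3 were higher and 2 lower at 90 than at 30 days, with a median log2 difference of 0.77. At an unadjusted edgeR p under 0.05 there were 3, of which 2 higher, against 16.8% of all genes. Between 90 and 60 days the median was 2.11, with 3 at that p, all higher, against 10.8%. In either comparison edgeR called none and DESeq2 called 1. The part of any of these cells in the differences of Cxcr6, Cxcr3 and Cxcl9 was not tested.

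**Figure D3:**
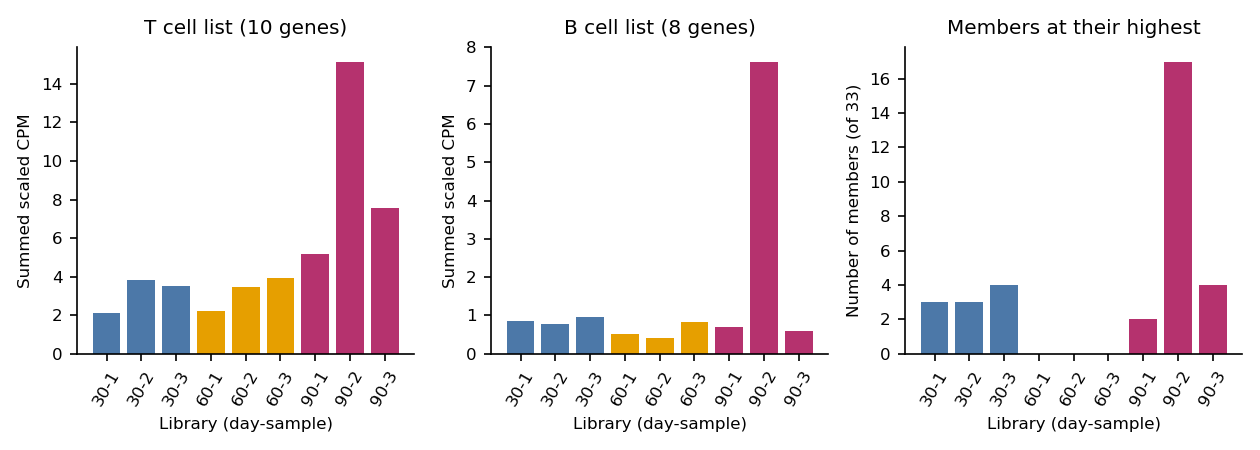
Summed scaled CPM of 10 T cell markers and of 8 B cell markers in each of the 9 libraries, and the number of the 33 members that have their highest value in that library, coloured by day. 90-day sample 2 holds the highest T cell sum, 15.2, the highest B cell sum, 7.63, and the highest value of 17 members. Some other cell type lists, not drawn here, also had their highest sum in that library.

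Several lymphoid members that stayed below the filter had most of their counts in that library. Cxcl13, which draws B cells into follicles, had 27 counts in 90-day sample 2 and 0 to 6 in the others. Its receptor Cxcr5 had 17 there and 0 to 2 elsewhere. Ccr4, Ccr6 and Ccr8, receptors of T cell subsets, had 16, 9 and 8 counts there and at most 7, 2 and 1 in any other library, and Ccl20, the ligand of Ccr6, had 22 against at most 5. These values come from 1 library and carry no test. A copy of Ccl21a on the unplaced scaffold JH584294.1 showed another pattern, with 48 counts in 90-day sample 1 and 1 to 7 in the rest, while the copy on chromosome 4 was at 0 throughout. Ccl21a and Ccl21b have 400 of 402 coding bases in common (99.5%), so the copy that the reads came from is uncertain. Among 7 identifiers of lymph node stroma and high endothelial venules, Glycam1 and Madcam1 had 2 and 7 counts in all libraries together and Chst4 had 0. Fcer2a had 5 counts each in 90-day samples 1 and 2 and 0 elsewhere, and the other 3 identifiers are Cxcl13 and the Ccl21a copies given above. The list summed to 1.96 scaled CPM in 90-day sample 1, 1.31 in 90-day sample 2 and 0.181 to 0.773 in the other 7 libraries, and its part in these values was not tested.

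Ccr2, the receptor that brings monocytes from blood (GRCm38 chromosome 9, 124101950 to 124113557, plus strand), had its lowest mean at 60 days. It had 12.3, 14.9 and 15.9 scaled CPM at 30 days, 7.99, 7.91 and 12.1 at 60 days, and 13.7, 16.3 and 11.4 at 90 days. All 60-day values lay below all 30-day values, 60-day sample 3 by only a small margin, and they overlapped the 90-day values. The log2 difference was -0.63 ± 0.18 between 60 and 30 days (SE, edgeR adjusted p = 0.114) and 0.57 between 90 and 60 days (0.255). Without 60-day sample 3 both passed, at -0.86 (adjusted p = 0.0134) and 0.79 (0.044). The summed level of 8 macrophage markers, all of which passed the filter, was 179.7 to 334.5 scaled CPM at 30 days, 218.6 to 245.7 at 60 days and 248.1 to 420.6 at 90 days. The part of macrophages in these values was not tested.

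**Figure D4:**
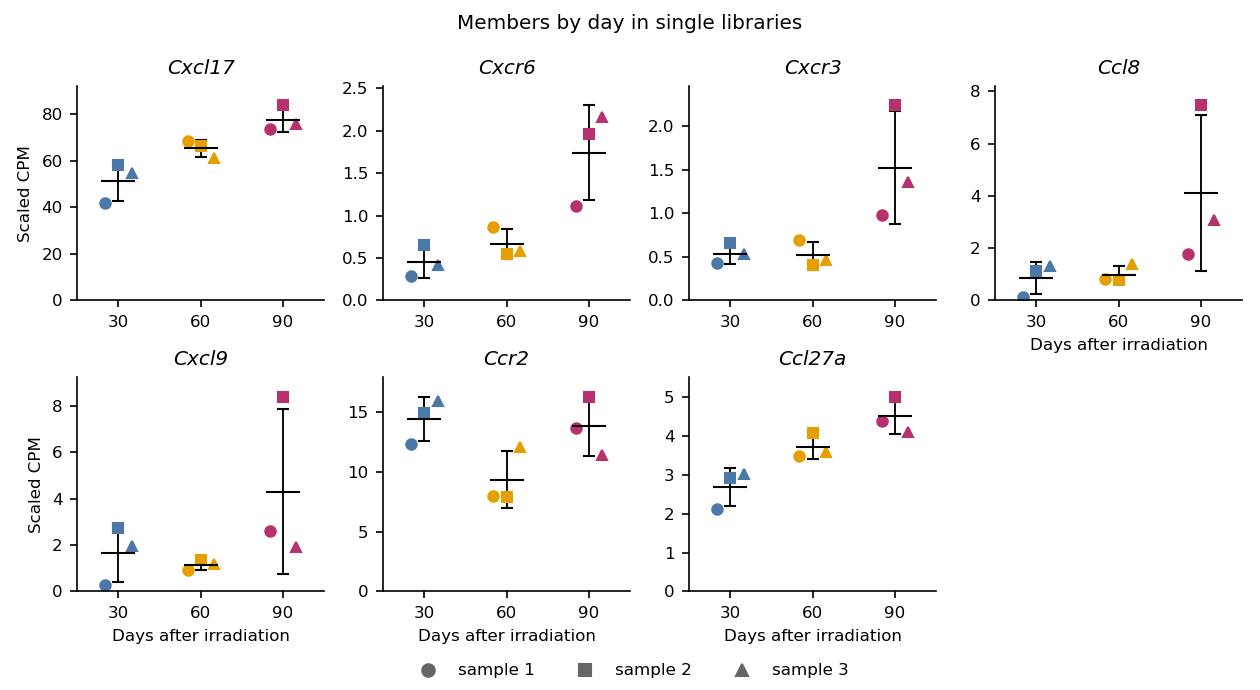
Scaled CPM of 7 members in each of the 9 libraries by days after irradiation, with a symbol for each library, a horizontal line for the mean of the day and whiskers for the SD. The 3 days of Cxcl17 do not overlap, and the 90-day points of Cxcr6 and Cxcr3 lie above all earlier ones.

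Of the 11 inflammatory CC and XC ligands that passed the filter, 9 lie in a pair of clusters on chromosome 11, with Ccl22 on chromosome 8 and Xcl1 on chromosome 1. None of the 11 was called by edgeR in any comparison. Between 90 and 30 days 2 of the 11 (Ccl8 and Ccl12) had an unadjusted p under 0.05, against 16.8% of all genes tested, and 8 were positive, against 52.1% of all genes, with a median of 0.21. DESeq2 called Ccl8 and limma-voom called none. Ccl8 (GRCm38 chromosome 11, 82115185 to 82116799, plus strand), a monocyte and T cell attractant, had 0.142, 1.13 and 1.30 scaled CPM at 30 days, 0.820, 0.769 and 1.38 at 60 days, and 1.79, 7.46 and 3.06 at 90 days. All 90-day values lay above the 6 earlier ones, and they spread over a range wider than the 90-day mean of 4.10 ± 2.98 (SD, n = 3). The log2 difference between 90 and 30 days was 2.22 ± 0.63 (SE, edgeR adjusted p = 0.0857). It passed with DESeq2 (0.0023) and, with edgeR, without 90-day sample 1 (2.58, adjusted p = 0.019), and was 1.45 (0.282) without 90-day sample 2. For any difference the edgeR adjusted p was 0.0909, and 0.017 without 90-day sample 1.

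Ccl12, the neighbour of Ccl8 and a ligand of Ccr2, had 0.567, 0.357 and 0.947 scaled CPM at 30 days, 2.42, 1.31 and 0.376 at 60 days, and 1.11, 2.65 and 1.56 at 90 days. The 90-day values lay above the 30-day values, while the 60-day values overlapped both. Its log2 difference between 90 and 30 days was 1.50 ± 0.58 (SE, edgeR adjusted p = 0.193). Ccl2, the best known ligand of Ccr2, was low, with 0.213, 0.238 and 0.533 scaled CPM at 30 days, 0.691, 0.317 and 0.334 at 60 days, and 0.775, 1.27 and 0.301 at 90 days (adjusted p for any difference 0.471). Ccl11 in the same cluster had 7.73, 9.15 and 10.7 scaled CPM, then 6.99, 8.32 and 7.26, then 7.55, 8.94 and 7.28, with overlapping days and an adjusted p of 0.579.

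In the second cluster lie Ccl9, Ccl6, Ccl3 and Ccl4, made mainly by myeloid cells and lymphocytes. Ccl6 had 4.96, 6.78 and 7.40 scaled CPM at 30 days, 6.30, 4.57 and 5.13 at 60 days, and 6.44, 8.15 and 6.22 at 90 days, and the days overlapped (edgeR adjusted p for any difference 0.523). Ccl3 ran from 0.832 to 1.01 at 30 days, from 0.345 to 0.633 at 60 days and from 0.775 to 1.20 at 90 days, so that its 60-day values lay below all others, at an adjusted p of 0.425. Ccl9 and Ccl4 had adjusted p-values of 0.715 and 0.63. Coding identity is 65.1% between Ccl6 and Ccl9 and 68.4% between Ccl3 and Ccl4.

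Among constitutive ligands, Ccl27a, a skin and mucosal chemokine that shares the receptor Ccr10 with Ccl28, had 2.13, 2.91 and 3.02 scaled CPM at 30 days, 3.50, 4.07 and 3.59 at 60 days, and 4.38, 5.02 and 4.12 at 90 days. Its days did not overlap and stood in the order of time, as for Cxcl17. The log2 difference between 90 and 30 days was 0.74 ± 0.23 (SE, edgeR adjusted p = 0.0881) and did not pass. Non-overlapping days with higher values at 90 than at 30 days were found for 6 of 33 members (18.2%), against 11.4% of all genes tested, namely Cxcl17, Ccl27a, Ccl12, Ccl8, Cxcr3 and Cxcr6, and no member was lower without overlap, against 11.8%. Against 60 days, 8 members (24.2%) were higher without overlap at 90 days, against 8.3% of all genes, and 1 (Ccr1) was lower, against 7.64%. Between 60 and 30 days 2 members were higher without overlap (Cxcl17 and Ccl27a), against 8.65% of all genes, and 2 were lower (Ccr2 and Ccl3), against 8.22%.

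The other abundant ligands showed no difference that passed. Ccl28 had 266, 201 and 171 scaled CPM at 30 days, 192, 196 and 137 at 60 days, and 190, 175 and 155 at 90 days (edgeR adjusted p for any difference 0.481). The highest value was in 30-day sample 1 and the 3 days overlapped. Its receptor Ccr10 had 0.213, 0.773 and 0.414 scaled CPM, then 0.302, 0.452 and 0.668, then 0.236, 0.481 and 0.602 (adjusted p = 0.988). Cxcl14 had 52.0, 55.1 and 84.2, then 64.0, 61.6 and 64.6, then 51.4, 71.4 and 56.0 (adjusted p = 0.927), and here 30-day sample 3 was the highest.

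Cx3cl1 had 27.9, 41.5 and 37.7 scaled CPM at 30 days, 36.0, 35.0 and 37.2 at 60 days, and 33.0, 45.2 and 39.3 at 90 days (edgeR adjusted p for any difference 0.816). Its receptor Cx3cr1, which falls outside the symbol rule, had 9.50, 13.6 and 15.6, then 12.6, 13.0 and 15.2, then 12.8, 19.0 and 16.1 (adjusted p = 0.558). For both genes the lowest library was 30-day sample 1 and the highest 90-day sample 2, with overlapping days. Ccl25, the ligand of Ccr9, ran from 2.91 to 6.38 scaled CPM over the 9 libraries and shares 204 of 7445 exon bases with Elavl1 on the opposite strand (adjusted p = 0.933).

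The Cxcl12 axis, which retains leukocytes and progenitor cells in tissue, showed no difference among days that passed the threshold. Cxcl12 had 19.8, 26.0 and 28.6 scaled CPM at 30 days, 21.2, 20.4 and 24.4 at 60 days, and 23.9, 31.8 and 22.0 at 90 days (edgeR adjusted p for any difference 0.620). Its signalling receptor Cxcr4 had 1.56, 1.25 and 1.84, then 1.73, 1.94 and 2.09, then 1.48, 3.06 and 1.15 (adjusted p = 0.852). The log2 difference of Cxcr4 between 90 and 30 days was 0.31, and -0.22 without 90-day sample 2, which held its highest value. The atypical receptor Ackr3, which takes up Cxcl12, had 6.03, 6.06 and 6.39, then 5.61, 5.34 and 6.63, then 6.88, 6.29 and 6.48 (adjusted p = 0.861). The days overlapped for all 3 genes. Ackr4, which takes up the ligands of Ccr7, ran from 0.416 to 1.31 (adjusted p = 0.69), and Ackr1 and Ackr2 stayed below the filter with 57 and 40 counts in all.

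Ccr7, which guides dendritic cells and lymphocytes to lymph nodes, had 0.780, 0.951 and 1.12 scaled CPM at 30 days, 0.820, 0.950 and 0.501 at 60 days, and 0.910, 1.92 and 1.05 at 90 days (edgeR adjusted p for any difference 0.559). The days overlapped. Its ligand Ccl19 had 1 count in all on chromosome 4 and 0 for a scaffold copy, and how reads matching both were treated is not given. Ccr1 ran from 0.851 to 2.44 scaled CPM (adjusted p = 0.72) and Ccr9 from 0.0452 to 0.851 (0.964). Xcl1, Ccl7 and Ccl22 passed the filter at no more than 1.6 scaled CPM in any library, and their adjusted p-values were 0.924, 0.686 and 0.926.

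Members that serve neutrophil recruitment were scarce. Both neutrophil receptors, Cxcr1 and Cxcr2, were at 0 in all 9 libraries, which allows up to 0.115 to 0.181 CPM, depending on the library. Of 5 neutrophil markers, S100a8 and Retnlg were also at 0, and S100a9 and Ly6g had 2 and 3 counts in all. The remaining marker, Csf3r, which encodes the receptor of granulocyte colony-stimulating factor, passed the filter with 14 to 62 counts per library. The 5 markers together summed to 1.06 to 2.38 scaled CPM. Among the ligands, Cxcl2, Cxcl3 and Cxcl5 had 16, 3 and 9 counts in the 9 libraries together. Cxcl1 alone passed the filter, with 0.0709, 1.13 and 0.414 scaled CPM at 30 days, 0.734, 1.13 and 0.417 at 60 days, and 0.843, 3.13 and 0.803 at 90 days. The days overlapped, and the log2 difference between 90 and 30 days was 1.53 ± 0.71 (SE, edgeR adjusted p = 0.295), or 0.57 without 90-day sample 2.

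The remaining members at 0 were Cxcl15, Ccl26, the chromosome 4 copies of Ccl21a and Ccl21b, and scaffold copies of Ccl19, Ccl21b, Ccl21c and Ccl27. For such copies a 0 may reflect how reads with several matches were treated, which is not given. Below the filter, Ccl17 had 48 counts in the 9 libraries together and Ccl24 had 19, while Ccl1 and Ccl27b had 9 each, Ccr1l1 had 6 and Ccr3 had 2. Scaffold copies of Ccl21b and Ccl27 had 3 and 2.

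Promoter sequence was available in RefSeq (GRCm38.p6, 250 bases before to 50 after the start) for 44 of the 59 symbols, with 51 records. Each was searched on both strands for an interferon-stimulated response element (GAAA, any 2 bases, GAAA), an interferon-gamma activated site (TTC, any 3 bases, GAA) and a kappaB site (GGG, any 2 bases, TTTCC). The response element occurred in 3 of the 51 records, against 3.44% of 32851 promoters of the same length, the activated site in 4 (8.30% of all promoters) and the kappaB site in 6 (1.63%). Promoters are shown for Cxcl1 (chr5:90890995-90891294, plus strand), with a pair of kappaB matches in capitals, and for Cxcl10 (chr5:92348840-92349139, minus strand), with its interferon-stimulated response element in capitals.
Cxcl1: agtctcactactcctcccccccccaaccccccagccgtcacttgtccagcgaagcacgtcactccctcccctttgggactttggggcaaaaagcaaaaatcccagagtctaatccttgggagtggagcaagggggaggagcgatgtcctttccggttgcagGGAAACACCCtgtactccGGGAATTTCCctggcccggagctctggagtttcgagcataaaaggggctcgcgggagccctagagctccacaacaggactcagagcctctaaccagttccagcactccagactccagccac
Cxcl10: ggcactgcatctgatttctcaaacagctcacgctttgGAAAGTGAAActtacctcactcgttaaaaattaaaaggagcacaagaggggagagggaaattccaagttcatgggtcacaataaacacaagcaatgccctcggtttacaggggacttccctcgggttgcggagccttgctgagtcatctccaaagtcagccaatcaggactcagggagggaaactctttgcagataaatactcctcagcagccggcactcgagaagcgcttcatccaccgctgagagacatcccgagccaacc
The promoter records of Cxcr6, Cxcr3, Ccl8 and Cxcl9 held none of the 3 motifs, which says only that these letters are absent from that window.

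Other genes of the chemokine system, and relatives of its genes, were read from lists grouped by function. The relatives outside the symbol rule include Cx3cr1, Xcr1, Pf4, Mif and several Cmtm genes. Of 10 tested, 1 was called between 90 and 30 days, against 3.57% of all genes. Cmtm6 rose by 0.40 ± 0.10 on the log2 scale (SE, edgeR adjusted p = 0.0281). Its place in this list does not show that it acts as a chemokine or receptor. Of 30 genes of receptor signalling (G protein subunits, arrestins, kinases and regulators of migration), none was called by edgeR, DESeq2 or limma-voom between 90 and 30 days, with 4 (13.3%) at an unadjusted p under 0.05, against 16.8% of all genes. Of 22 tested inducers of chemokine genes none was called by these 3 tools, with 3 (13.6%) at an unadjusted p under 0.05, below the same share of all genes. Ifng and Il6 stayed below the filter with 8 counts and 1 count in all. Among 13 genes that process or present chemokines, Ndst1, which sulfates heparan chains, fell by 0.40 between 90 and 30 days (SE 0.10, adjusted p = 0.0278). Hs3st1, another heparan sulfotransferase, rose by 1.17 between 60 and 30 days (adjusted p = 0.00139) and fell by 1.23 between 90 and 60 days (0.00167).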

How the data were processed

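Total RNA of submandibular glands was sequenced after a SMARTER mRNA-seq library preparation, per the labels' protocols. The authors deposited raw read counts per Ensembl gene. The submitters' processing notes name fastp, STAR, featureCounts and the mouse build mm10, and versions, annotation, use of strand and treatment of reads with several matches are not given in the sources used here. A further 3 columns matched no listed sample and were not used. Positions, exon lengths, gene types and coding sequences came from GENCODE mouse release 21 (GRCm38), which holds 54495 of the 54532 identifiers, and symbols were found for 54409. Of 65 protein-coding genes that match the symbol rule, 1 was left out and another enters the counts and medians of members only, and neither is reported here by name.

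Samples were grouped by the day in their titles. The filterByExpr step of edgeR 4.0.16, at a minimum count of 10, kept 15224 of 27001 detected genes, and libraries were scaled with trimmed-mean (TMM) factors. All 9 libraries were fitted together with day as a factor (common coefficient of variation between samples 0.150). The robust quasi-likelihood test of edgeR gave p-values, with Benjamini-Hochberg adjustment over all genes tested. Standard errors are the log2 difference divided by the square root of its F statistic. DESeq2 1.42.0 and limma 3.58.1 (voom) served as alternatives, beside other scalings, filters, equal depth, a replicate block and each library left out in turn. R 4.3.3, Python 3.11.15, pandas 2.3.3 and matplotlib 3.10.9 were used, and the fits were tested on simulated data.

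Values per library are given for members that passed the threshold, for those with an unadjusted p under 0.05 for any difference, for the 10 with the highest level per kilobase, and for a list of well-known axes. Those named beyond it (Ccl3, the members below the filter and others given by range) were chosen after their values were seen. The members and lists were chosen with earlier results of these data known. Limits of detection cover counting error only.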

Additional observations from a re-analysis of the deposited data

How the results depend on the processing

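Between 90 and 30 days 2 of 33 members were called, against 3.57% of all genes. With limma-voom it was 1 of 33, against 2.92%. With no filter on low counts it was 6 of 54, against 3.87%. With at least 10 counts in every library it was 1 of 18, against 4.31%. Without both 30-day sample 1 and 90-day sample 2, a choice made after seeing the data, it was 0 of 34, against 0.614%. For any difference 2 of 33 members were called, against 3.29% of all genes. It was 5 of 33 with DESeq2 and 1 of 33 with limma-voom. It was 7 of 54 with no filter and 1 of 18 with at least 10 counts in every library. Without both libraries it was 0 of 34. Calls over all genes with DESeq2, with no filter and without both libraries are given in the next paragraph. With no filter, 1 of 54 members was called between 60 and 30 days, against 1.7% of all genes. Between 90 and 60 days it was 3 of 54, against 1.31%, and DESeq2 called 1 of 33, against 1.17%. Each library was also left out in turn, with 33 or 34 members tested. This gave 0 to 1 members between 60 and 30 days, against 0.47% to 1.56% of all genes. It gave 0 to 1 between 90 and 60 days, against 0.104% to 0.658%. Between 90 and 30 days it gave 0 to 4, against 1.16% to 4.49%, and for any difference 0 to 3. Members expressed (33) were 21 at an average of at least 1 CPM and 18 at 10 counts in every library.

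Over all genes, calls between 60 and 30 days (238) were 90 with library-size scaling (79 higher, 11 lower), 376 with DESeq2, 152 with limma-voom, 459 with no filter and 95 without both libraries. Between 90 and 60 days (39, of which 14 higher) they were 150 with DESeq2, 354 with no filter, 19 without both libraries and 28 with library-size scaling (19 higher). Between 90 and 30 days (544) they were 867 with DESeq2, 1045 with no filter and 95 without both libraries. For any difference (501) they were 277 with library-size scaling, 847 with DESeq2, 1194 with no filter and 123 without both libraries. Leaving out each library in turn gave 73 to 244, 16 to 103, 184 to 703 and 220 to 683. Ccr2 between 90 and 30 days (-0.06) changed sign with library-size scaling (0.17), and ran from -0.20 to 0.054 with single libraries left out. Cxcl9 (1.36) was -0.049 without both libraries. The cause of these changes was not tested.

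Samples share the numbers 1 to 3 across days, but the labels do not say that they are paired. Correlations of the deviations of same-numbered samples ran from -0.13 to 0.32. Those of differently numbered samples ran from -0.32 to 0.29. So few values cannot decide whether samples are paired. With a replicate block, calls were 270 between 60 and 30 days (1.77% of all genes) and 92 between 90 and 60 days (0.604%). They were 717 between 90 and 30 days (4.71%) and 609 for any difference. Of 33 members, 0, 0, 3 and 2 were called in these comparisons. Ccl8 was called under the block between 90 and 30 days (edgeR adjusted p = 0.00985) and for any difference (0.0087), and Cxcr6 was not called for any difference (0.0508).

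Depth limits members with low counts, among them Cxcr6 with 4 to 57 counts per library. Of members at 0 with a single identifier, the data say only that they lie under the limit of detection. For genes with several copies, treatment of reads with several matches is not given, so a 0 need not set that limit. Each day has 3 samples, and only irradiated glands were analysed. Most members that were high at 90 days were highest in 90-day sample 2, and whether gland composition differed between days was not tested.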
